A study of Mus musculus with 8 samples.

Results

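The genes of MHC class II antigen presentation were followed in mouse skin after the hair had been pulled out with wax. The set holds 9 genes, taken by their names in the array design: the chains H2-Aa, H2-Ab1 and H2-Eb1, the peptide exchange genes H2-DMa and H2-DMb1, the invariant chain Cd74, the modulators H2-Oa and H2-Ob, and the transactivator Ciita. They are 9 of 34790 genes measured, each was found on the array, and each was well above background on all 8 arrays. RNA came from female C57BL/6 mice, an inbred strain, and was labelled with 1 dye, Cy3, for Agilent expression arrays, with 1 array for each of 8 groups. The groups were a control taken directly after shaving and 7 samples of wax-plucked back skin, with 12 h, 1 d, 2 d, 4 d, 6 d, 10 d or 50 d between plucking and sampling. Per the design text the follicles of the back had first been brought into step by an earlier waxing, and whether the shaved control had also been waxed before is not stated there. The labels give an age of 10 weeks for the control and for 12 h to 4 d, 11 weeks for 6 d and 10 d, and 17 weeks for 50 d, so age and time cannot be told apart at 50 d. The treatment protocol instead gives 7 to 8 weeks, a disagreement that could not be settled. The labels call the material adipose cells, while the design text describes tissue outside the follicles that includes fat and dermis. How many mice each sample holds is not given in the sources used here.

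MHC class II molecules carry peptides from taken-up proteins to the surface of antigen-presenting cells, where CD4+ T cells read them. An alpha and a beta chain assemble with the invariant chain, which is then cut away, and the DM protein exchanges its last fragment for a peptide while the DO protein restrains DM. In skin these genes are known mainly from dendritic cells, Langerhans cells, macrophages and, where present, B cells. The promoter module of class II chain genes has an X box read by the RFX complex and CREB and a Y box read by NF-Y. It needs the coactivator CIITA, which interferon gamma induces in many other cell types.

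The stretch upstream of the start is shown for the 5 genes of the set in which that module could be found by its letters. A RefSeq table of 300-base windows on GRCm38.p6, from 250 bases before a gene's start to 50 after it, held 6 of the 9 genes: H2-Aa, H2-Eb1, H2-DMa, H2-DMb1, H2-Oa and H2-Ob. The search was for GNAAC, the core of the X box, followed after 15 to 40 bases by TGATTGG, the core of the Y box, on the same strand and in either orientation. The letters were chosen from textbook knowledge after the windows had been read. This pair was in 0.715% of the 32851 windows in the table and in 5 of the 6 matched genes. TGATTGG alone, on either strand, was in 7.82% of the windows and GNAAC alone in 84.8%. The window of H2-Aa is chr17:34287842-34287929 on the minus strand. The others lie on the plus strand, H2-Eb1 at chr17:34305751-34305837, H2-DMb1 at chr17:34153072-34153159, H2-Oa at chr17:34092278-34092365 and H2-Ob at chr17:34238793-34238877. All are written 5′ to 3′ along the gene, with the X and Y cores in capitals.
H2-Aa: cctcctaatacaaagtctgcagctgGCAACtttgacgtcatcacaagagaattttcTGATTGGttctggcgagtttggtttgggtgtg
H2-Eb1: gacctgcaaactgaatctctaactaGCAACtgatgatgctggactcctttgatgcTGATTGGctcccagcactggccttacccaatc
H2-DMb1: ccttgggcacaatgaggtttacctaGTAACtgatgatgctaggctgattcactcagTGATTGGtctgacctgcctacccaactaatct
H2-Oa: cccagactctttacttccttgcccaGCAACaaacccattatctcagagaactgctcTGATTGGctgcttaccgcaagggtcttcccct
H2-Ob: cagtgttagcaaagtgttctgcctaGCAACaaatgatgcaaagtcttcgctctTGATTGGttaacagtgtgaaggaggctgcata

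The X and Y cores stood at nearly the same spacing in these genes, with 23 bases between them in H2-Ob, 25 in H2-Eb1 and 26 in H2-Aa, H2-DMb1 and H2-Oa. The Y core began 45 bases before the start of H2-Oa, 50 before that of H2-Aa, 59 before that of H2-Ob, 61 before that of H2-Eb1 and 63 before that of H2-DMb1. H2-DMa has 2 starts in the table, and neither window held the pair.

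Levels are given as log2 processed signals after the 75th percentile of the array's spots was subtracted, so 0 is the brightness of a spot at that percentile. A level of one gene is not set against that of another, since each comes from its own probe. The error of a level from the scanner's error model was 0.14 to 0.17 for these genes, and the change shown by several probes of one gene had a median SD of up to 0.18 between them. Both errors are technical. With 1 array for each group the spread between mice is unknown, so no difference carries a test, and a gene is called higher or lower where it stood at least 2-fold apart and its brighter level was well above background. All comparisons with the shaved control share that 1 array. In RNA from whole tissue, fewer cells of a type and less RNA per cell cannot be told apart. No spot was saturated, and the share of spots well above background ran from 72.9% to 81.2% over the arrays. The slope of the spike-in controls on the 10 d array was 0.891, outside the range set in the file headers. Fat markers were present on all arrays, with the lipid droplet genes Plin1 between 2.47 and 4.17 and Cidec between 5.28 and 6.97. Markers of hair and epidermis moved widely, the root sheath keratin Krt25 from -2.47 in the control to 6.35 after 4 d and the cornified envelope gene Lor from -0.81 after 10 d to 6.79 after 1 d. What part such shifts in the makeup of the samples had in the values below was not tested.

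The 3 chain genes were highest on the shaved control array, next highest at 10 d and lowest at 4 d. H2-Aa encodes the alpha chain of I-A, and its probe lies at chr17:34421285-34421344 on the minus strand of mm9. Its level was 3.65 in the control, 2.42 after 12 h, 2.23 after 1 d, 2.32 after 2 d, 2.04 after 4 d, 2.93 after 6 d, 3.46 after 10 d and 2.60 after 50 d. Against the control it was 2.35-fold lower after 12 h, 3.05-fold lower after 4 d and 1.14-fold lower after 10 d. Between 12 h and 4 d its 4 levels thus lay within 0.4 of each other and more than 1 below the control, and the 10 d level lay within about 1 technical error of the control.

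H2-Ab1, the I-A beta chain, has 2 probes that overlap by 51 bases, and the brighter one, at chr17:34406296-34406355 of mm9, stands for it. Its levels were 7.58 in the control, 6.78 after 12 h, 6.53 after 1 d, 6.60 after 2 d, 6.22 after 4 d, 6.84 after 6 d, 7.24 after 10 d and 7.07 after 50 d. The second probe gave 7.45 in the control, 6.45 after 12 h, 6.30 after 2 d, 6.09 after 4 d and 7.11 after 10 d. Both probes therefore placed the control first, 10 d next and 4 d last. H2-Ab1 was 2.57-fold lower at 4 d and 2.06-fold lower at 1 d, the only times at which the brighter probe stood 2-fold apart, whereas the second probe was also at least 2-fold lower at 12 h and 2 d.

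H2-Eb1 encodes the beta chain of I-E, and its probe lies at chr17:34453075-34453134 of mm9. In the control it stood at 7.26, followed by 6.30 after 12 h, 6.12 after 1 d, 6.13 after 2 d, 5.91 after 4 d, 6.43 after 6 d, 6.94 after 10 d and 6.46 after 50 d. The fold below the control was 1.95 after 12 h, 2.21 after 1 d, 2.20 after 2 d, 2.56 after 4 d and 1.25 after 10 d. Mice of this strain are known to lack the partner alpha chain of I-E, and the pseudogene probe H2-Ea-ps was not well above background on any array. Of the 7 steps between neighbouring levels in order, 5 in H2-Aa and 3 each in H2-Ab1 and H2-Eb1 were larger than 0.18. Levels at 1 d and 2 d, and those at 6 d and 50 d in H2-Eb1, lay closer than that.

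**Figure D1:**
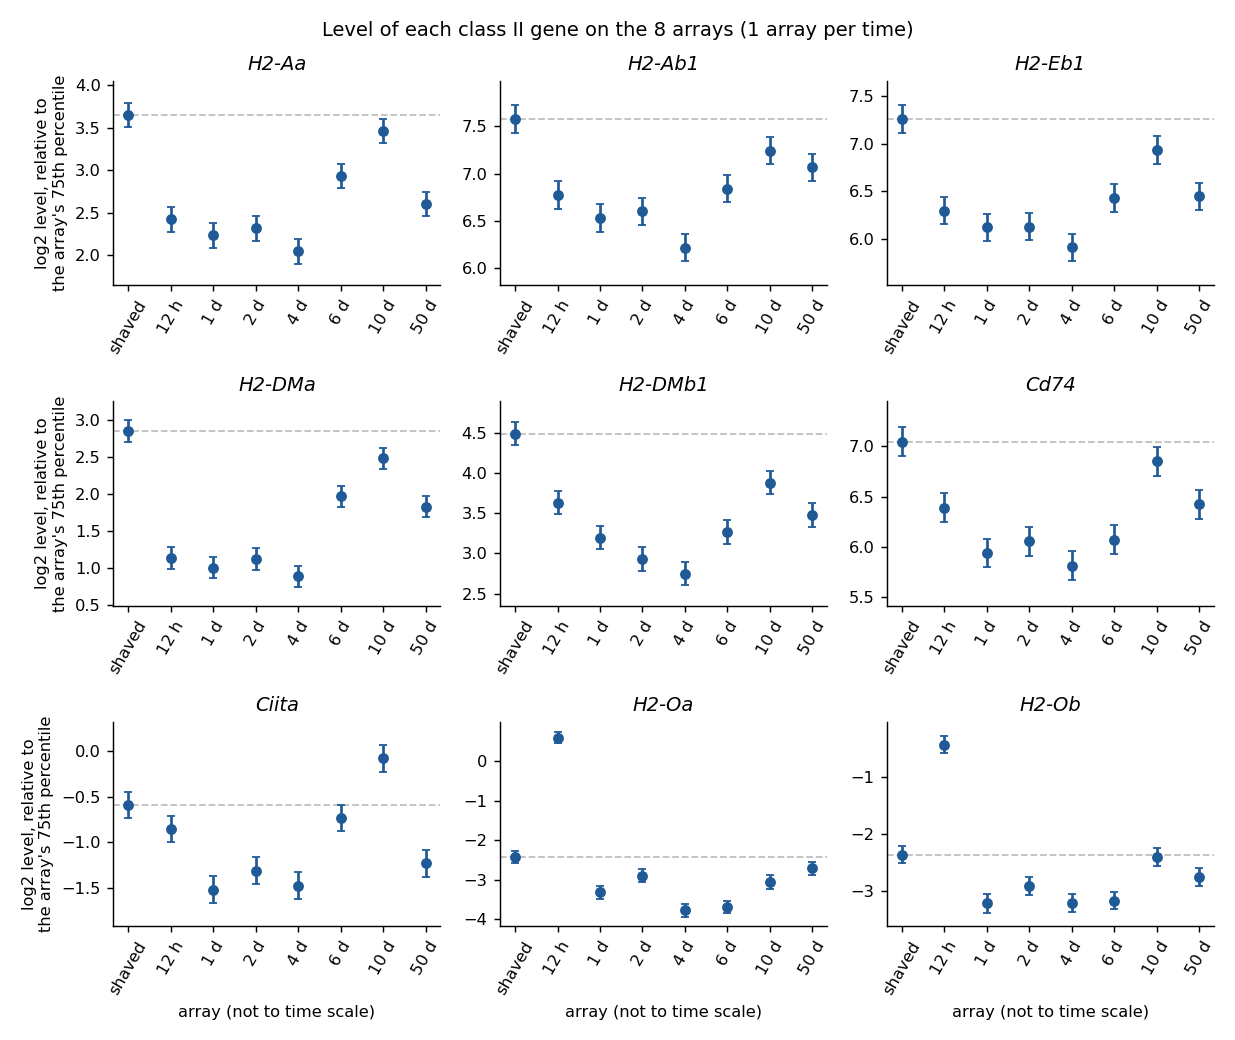
Level of each class II gene on each of the 8 arrays, as a log2 processed signal relative to the 75th percentile of the array, with its own vertical axis per gene. Points are single arrays, bars are the technical error of the scanner's error model, and the dashed line is the shaved control. In 6 genes the control is highest, 10 d second and 4 d lowest, while H2-Oa and H2-Ob stand highest at 12 h and Ciita at 10 d.

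H2-DMa and H2-DMb1, the chains of the DM protein that loads peptide onto class II, lay further below the control than the 3 chain genes at 4 d. H2-DMb1 and H2-Aa, at -1.75 and -1.61, lay closer to each other than the technical SD of 0.18. H2-DMa had levels of 2.85 in the control, 1.14 after 12 h, 1.01 after 1 d, 1.12 after 2 d, 0.89 after 4 d, 1.97 after 6 d, 2.48 after 10 d and 1.83 after 50 d. It was 3.28-fold lower after 12 h, 3.60-fold after 1 d, 3.32-fold after 2 d and 3.90-fold after 4 d, and after 6 d 1.84-fold. The levels from 12 h to 4 d thus lay close together, and those from 6 d on lay above all of them. Its probe spans chr17:34274300-34274863 of mm9, a distance longer than the probe itself.

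H2-DMb1, measured at chr17:34297109-34297168 of mm9, had its highest level of 4.49 in the control. The later levels were 3.63 after 12 h, 3.19 after 1 d, 2.93 after 2 d, 2.75 after 4 d, 3.27 after 6 d, 3.88 after 10 d and 3.48 after 50 d. It differed from H2-DMa in its order over the early arrays, with 12 h next after 10 d and each array from 12 h to 4 d below the one before. H2-DMb1 was 1.82-fold lower after 12 h, 3.36-fold lower after 4 d and 1.53-fold lower after 10 d, where it was the chain or DM gene farthest from the control.

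Cd74, the invariant chain that blocks the peptide groove until loading, has its probe on chromosome 18 of mm9, while 7 genes of the set lie on chromosome 17. Its levels were 7.05 in the control, 6.39 after 12 h, 5.94 after 1 d, 6.06 after 2 d, 5.81 after 4 d, 6.07 after 6 d, 6.85 after 10 d and 6.42 after 50 d. The largest fold below the control was 2.36 at 4 d, and at 10 d it was 1.15. Cd74 thus shared its highest, second highest and lowest array with the chains, over a range of 1.24 on the log2 scale, against 1.96 for H2-DMa. The offset of H2-DMa from Cd74 on the same array, relative to its offset in the control, was -1.05 after 12 h, -0.73 after 1 d, -0.74 after 2 d and -0.72 after 4 d, then 0.096 after 6 d, -0.17 after 10 d and -0.40 after 50 d. The genes therefore changed by unequal amounts from 12 h to 4 d and by nearly equal amounts at 6 d and 10 d.

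H2-Oa and H2-Ob, which encode the chains of DO, an inhibitor of DM known mainly from B cells, had another course. H2-Oa, with its probe at chr17:34232033-34232092 of mm9, stood at -2.42 in the control, 0.60 after 12 h, -3.32 after 1 d, -2.89 after 2 d, -3.77 after 4 d, -3.68 after 6 d, -3.05 after 10 d and -2.71 after 50 d. The 12 h array thus lay 3.02 above the control, or 8.11-fold, and every later array lay below the control. The largest fold below it was 2.56 at 4 d, with 2.40 at 6 d.

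H2-Ob, measured by its brighter probe across chr17:34380481-34380849 of mm9, had levels of -2.36 in the control, -0.44 after 12 h, -3.22 after 1 d, -2.91 after 2 d, -3.21 after 4 d, -3.17 after 6 d, -2.41 after 10 d and -2.75 after 50 d. By this probe it was 3.79-fold above the control at 12 h and 2-fold apart at no other time. A second H2-Ob probe, at chr17:34382790-34382849, gave -2.50 in the control, 0.29 at 12 h and values between -4.04 and -2.85 afterwards, so both placed 12 h highest. They disagreed on the size of later differences, with the second probe at -4.04 after 1 d against -3.22 for the first. The second probe was also at least 2-fold below its control level after 1 d and after 4 d, when it stood at -3.95. A further H2-Ob probe was not well above background on any array. With normexp, another background correction, the 12 h differences were 2.54 for H2-Oa and 1.46 for H2-Ob, and H2-Oa was no longer 2-fold lower at 4 d and 6 d, at -0.85 and -0.94.

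At 12 h the DO genes stood opposite to the DM genes. Relative to the control, the offset of H2-Oa from H2-DMa was 4.73 after 12 h, 0.95 after 1 d, 1.26 after 2 d, 0.61 after 4 d, -0.38 after 6 d, -0.27 after 10 d and 0.74 after 50 d. That of H2-Ob from H2-DMb1 was 2.78 at 12 h and between 0.42 and 1.01 at the other times. The 12 h offset was the largest of the 7 in both pairs.

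Markers of B cells were high on that same array. Of 11 B cell genes, 8 were at least 2-fold higher at 12 h, against 3.86% of all tested genes. The median log2 difference of the list was 3.54, against -0.049 over all tested genes, and its summed level was 9.49 times that of the control. At the other 6 times the sum was between 0.80 and 1.11 times the control. Cd79a, a signalling chain of the B cell receptor, was at -1.64 in the control and 2.58 at 12 h, and between -2.40 and -1.20 elsewhere. Its partner Cd79b was at -0.30 and 3.85, and Ms4a1, which encodes CD20, at -3.87 and 1.85. The B cell transcription factor Pax5, chosen after its values were seen, was at -3.62 and -3.03, a difference of 0.59. No B cell marker was below background on all arrays.

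Some genes of T cells, and genes of lymph node stroma and venules, were high at 12 h as well. Of 12 T and NK cell genes 6 were higher, against 3.86% of all genes, with a list median of 1.56. Among them was Cd3d, at -3.06 in the control and 1.41 at 12 h. Of those not called, Cd3e and Nkg7 lay 0.76 and 0.22 above the control. The differences of Cd247, Klrb1c, Cd4 and Cd28 were between -0.26 and -0.04. All 4 lymph node genes measured were higher, beside the same 3.86% of all genes. With the mean over probes 2 were, and with normexp or with both arrays required to be above background 3 were. Ccl19 and Madcam1 only just passed, at 1.02 and 1.06. Cxcl13 was also higher at 10 d, by 1.06, against 3.99% of all genes. Glycam1, a mucin of lymph node venules, stood at 4.97 at 12 h and was not well above background on any other array. The part of B cells or of lymph node tissue in the 12 h levels of H2-Oa and H2-Ob was not tested. The other 7 class II genes were all below the control on the 12 h array. Against 1 d, however, all 9 genes lay higher at 12 h, with a median of 0.44, against -0.085 over all genes tested. The summed levels of the B cell, the T and NK cell and the lymph node lists were highest on the 12 h array.

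**Figure D2:**
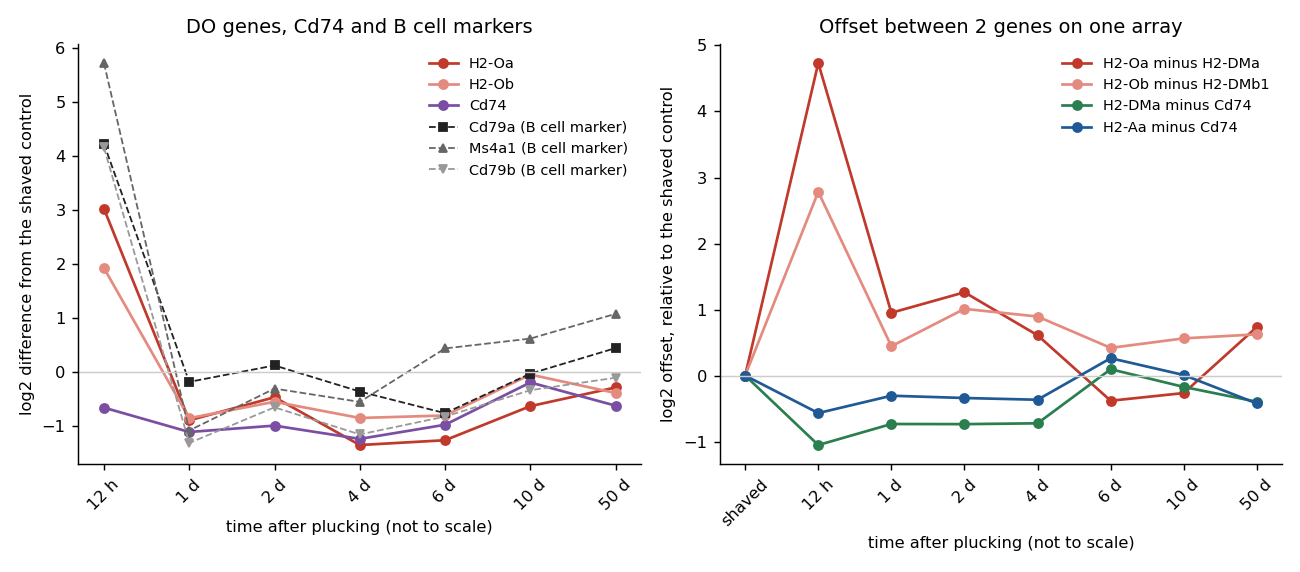
Left, log2 difference from the shaved control of H2-Oa, H2-Ob and Cd74 (solid) and of the B cell markers Cd79a, Ms4a1 and Cd79b (dashed) at 7 times. Right, the log2 offset between 2 genes on the same array, relative to their offset in the control. Points are single arrays and lines only guide the eye. H2-Oa and H2-Ob lie 3.02 and 1.92 above the control at 12 h, as the B cell markers do, while Cd74 lies 0.66 below it.

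Ciita, the coactivator that the promoter module needs, was highest at 10 d and not in the control. Its levels were -0.59 in the control, -0.85 after 12 h, -1.52 after 1 d, -1.31 after 2 d, -1.47 after 4 d, -0.74 after 6 d, -0.081 after 10 d and -1.23 after 50 d. The 10 d array lay 0.51 above the control and 1 d lay 0.93 below it, so Ciita stood 2-fold apart from the control at no time. Against the median of the 8 arrays the 10 d level was 0.96 higher. Only 2 of its 7 neighbouring steps were larger than 0.18, and the levels at 1 d, 2 d and 4 d lay within about 0.2 of each other.

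The Ciita probe is unusual in that it shares a run of at least 20 bases with probes of 3 other genes, Cbln2, Odz1 and Prg4. No other probe of these 9 genes shared such a run with another gene. Whether RNA of other genes adds to the Ciita signal was not tested.

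Genes beside the set were measured too. H2-DMb2, a second DM beta gene, had levels of -2.03 in the control, -1.80 after 12 h, -3.40 after 1 d, -3.43 after 2 d, -4.10 after 4 d, -3.32 after 6 d, -1.91 after 10 d and -2.92 after 50 d. It was 4.20-fold lower at 4 d. Unlike H2-DMb1 it was not below the control at 12 h. The genes are near copies, and although their probes share no run of 20 bases, signal may be shared between them. H2-Eb2, a beta gene next to H2-Eb1, stood at -3.97 in the control, -1.89 after 12 h, -3.79 after 1 d, -3.24 after 2 d, -3.26 after 4 d, -1.91 after 6 d, -1.80 after 10 d and -4.47 after 50 d. It thus lay about 2 above the control at 12 h, 6 d and 10 d, at which times H2-Eb1 lay below it.

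Counted over the set, class II genes were mostly below the shaved control. At 12 h 2 of 9 genes were at least 2-fold lower, H2-Aa and H2-DMa, against 3.33% of 29613 genes tested, and 2 were at least 2-fold higher, H2-Oa and H2-Ob, against 3.86%. At 1 d 6 were lower, the chains, the DM genes and Cd74, against 3.14%, and none was higher, against 2.76%. At 2 d 4 were lower, H2-Aa, H2-Eb1, H2-DMa and H2-DMb1, against 3.52%, and at 4 d 7 were, the same 6 genes as at 1 d and H2-Oa, against 6.5%. Higher genes numbered 0 at both times, against 2.62% and 5.9%. At 6 d H2-DMb1 and H2-Oa were lower, against 2.1%, and none was higher, against 4.17%. At 10 d no gene was lower or higher, against 2.13% and 3.99%. At 50 d H2-Aa, H2-DMa and H2-DMb1 were lower, all between 2.02-fold and 2.07-fold, against 4.4%, and none was higher, against 2.7%. Only 1 of these 3 passed when arrays were centred on probes above background.

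The median log2 difference of the 9 genes was -0.80 after 12 h, -1.11 after 1 d, -0.99 after 2 d, -1.35 after 4 d, -0.83 after 6 d, -0.33 after 10 d and -0.64 after 50 d. The median over all genes tested was between -0.13, at 4 d, and 0.039, at 1 d. All 9 genes lay below the control at 1 d, 2 d, 4 d, 6 d and 50 d. These counts rest on the control array. With the 50 d array as the reference 1 gene was at least 2-fold lower at 4 d, H2-Oa, and none at 12 h, 1 d, 2 d or 6 d. The medians then were -0.47 after 1 d, -0.32 after 2 d and -0.61 after 4 d, and all 9 genes lay below the 50 d array at these 3 times.

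**Figure D3:**
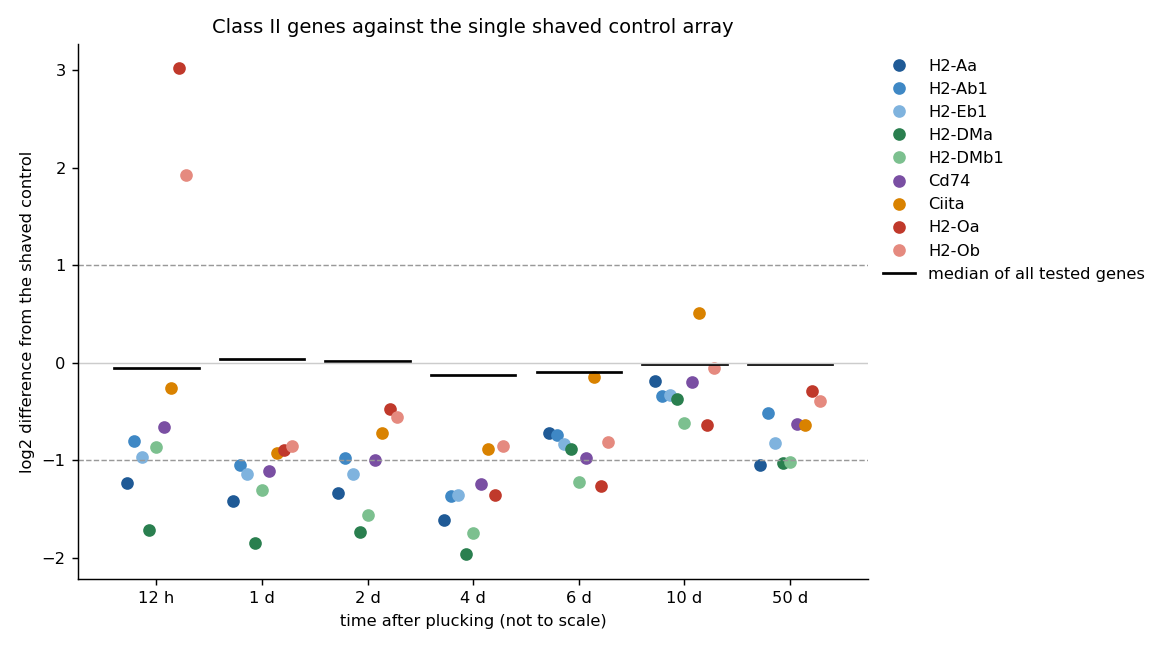
Log2 difference of each class II gene from the single shaved control array at 7 times, with the median of all tested genes as a black bar and the 2-fold limits dashed. Points are single arrays. The genes lie mostly below the limit of -1 after 1 d and 4 d, near 0 after 10 d, and H2-Oa and H2-Ob alone lie above 1, after 12 h.

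Comparisons between later times do not use the control array, and were added after the data had been seen. From 4 d to 10 d the levels were higher at 10 d in all 9 genes, with 7 at least 2-fold higher against 9.37% of genes tested, and none lower, against 5.93%. The median difference was 1.04, against 0.13 over all genes. H2-DMa differed by 1.60, H2-Aa by 1.42, Ciita by 1.39 and H2-DMb1 by 1.13, while H2-Ab1, H2-Eb1 and Cd74 lay at 1.02 to 1.04, just past the limit. H2-Oa and H2-Ob stayed inside it at 0.72 and 0.80. Centring each array on the median of probes above background on all arrays left 4 genes past the limit. At 6 d against 4 d H2-DMa alone was 2-fold higher, by 1.08, against 5.11%, and none was lower, against 2.66%. At 50 d against 10 d Ciita alone was 2-fold lower, by -1.15, against 6.98%, and none was higher, against 5.57%. At 12 h against 1 d all 9 genes lay higher, with a median of 0.44, against -0.085 over all genes. H2-Oa and H2-Ob alone were at least 2-fold higher, by 3.91 and 2.78, against 2.61%, and none was lower, against 1.62%.

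Other genes of the class II pathway were read from lists. Among 12 genes of antigen processing and peptide loading, 2 were at least 2-fold lower after 12 h, 4 after 1 d, 4 after 2 d, 5 after 4 d and 5 after 50 d, none was lower after 6 d or 10 d, and none was higher at any time. Of all genes tested, 3.33% were lower after 12 h, 3.14% after 1 d, 3.52% after 2 d, 6.5% after 4 d and 4.4% after 50 d. The median of the list was -0.78 at 4 d. Ctss, the protease cathepsin S that trims the invariant chain, stood at 6.07 in the control, 4.51 after 4 d, 5.69 after 10 d and 4.81 after 50 d. Ifi30, a thiol reductase of the endosome, was at 3.20 in the control, 1.27 after 2 d, 1.38 after 4 d and 1.32 after 50 d. Cathepsin H, encoded by Ctsh, was at 6.46 in the control and at 4.85 at 2 d, its lowest level.

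Few regulators upstream of class II were 2-fold apart from the control. Among 18 measured genes of interferon gamma signalling and of the promoter complexes, 17 of them tested at 50 d, none was called after 12 h, 6 d or 10 d, 1 was lower after 1 d, 2 d and 50 d, and 2 were lower after 4 d, with a median of -0.44. Of all genes, 3.33% were lower after 12 h, 3.14% after 1 d and 3.52% after 2 d. The share was 6.5% after 4 d, 2.1% after 6 d, 2.13% after 10 d and 4.4% after 50 d. Higher were 3.86% after 12 h, 4.17% after 6 d and 3.99% after 10 d. The 2 genes lower after 4 d were Irf8 and Irf4. Irf8, an interferon regulatory factor of myeloid cells and B cells, was at 2.59 in the control and 1.25 at 4 d. Irf4 was at 1.79 and 0.54. Irf4 reached its highest level, 2.54, at 10 d, the time at which Ciita was highest. So did Nfya at 0.44, Creb1 at -2.38 and Irf2 at 0.69, though Irf2 also stood at 0.69 at 12 h. Ifng itself was between -5.18 and -3.87, and Rfx5, a subunit of RFX, was well above background on 6 arrays only.

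The lists of genes induced by interferon gamma and of the class I pathway had their lowest medians at 4 d, although single genes were lowest at other times. Of 12 induced genes 8 were lower at 4 d, against 6.5% of all genes, with a median of -1.36. At 10 d 3 were, against 2.13%, with a median of -0.59. Cxcl10, a T cell chemokine, was at -0.35 in the control, 0.99 at 12 h and -2.22, its lowest level, at 10 d. Tgtp1 and Gbp5 of the same list were instead highest at 10 d, at -1.76 and 1.01. Of 19 class I genes 10 were lower at 4 d, against the same 6.5%, with a median of -1.09, and none at 10 d, against 2.13%. H2-K1, a class I heavy chain, was at 7.62 in the control, 6.22 at 4 d and 6.98 at 10 d.

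**Figure D4:**
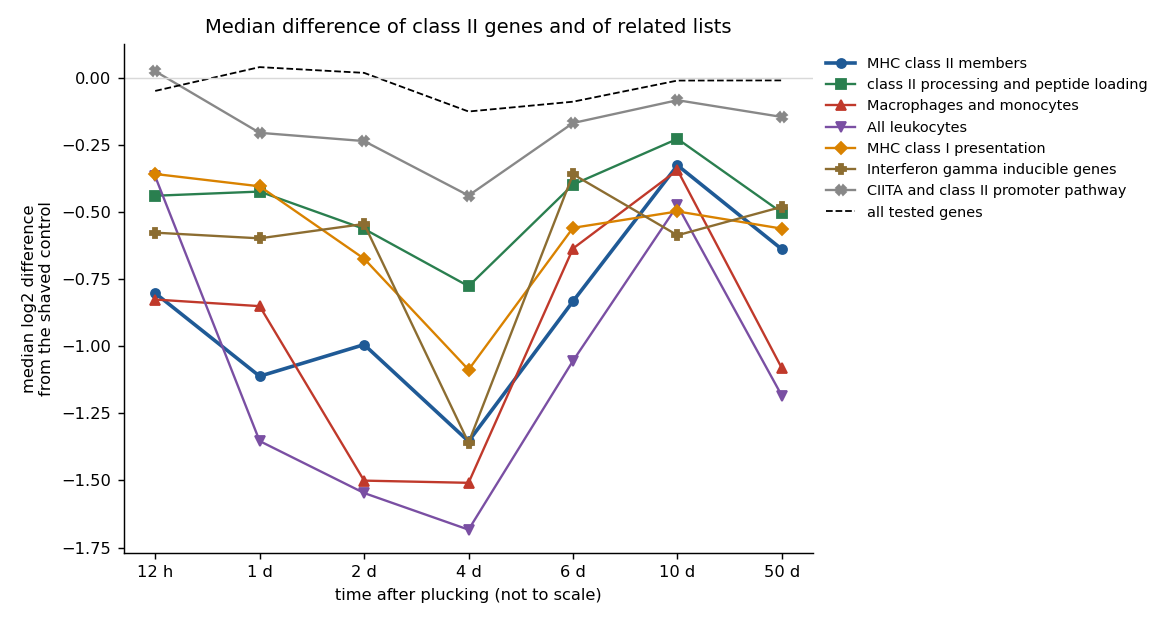
Median log2 difference from the shaved control of the 9 class II genes and of 6 gene lists at 7 times, with the median of all tested genes dashed. Points are medians over genes of 1 array against the 1 control array, and lines only guide the eye. The class II median is -1.35 after 4 d and -0.33 after 10 d, and the macrophage and leukocyte medians lie at -1.51 and -1.68 after 4 d.

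Macrophage and general leukocyte markers were also mostly lower at 4 d than in the control. Of 16 macrophage and monocyte genes 14 were lower at 4 d, against 6.5% of all genes. Their median was -1.51 and the summed level of the list was 0.41 times the control. At 10 d 1 was lower, against 2.13%, with a sum of 0.82 times. None was lower at 6 d, against 2.1%, while at 50 d 11 were, against 4.4%, with a list median of -1.08. Over the 7 times the sum was between 0.41 and 0.82 times the control. The lysosomal marker Cd68 stood at 5.87 in the control, 3.98 at 4 d and 5.18 at 10 d. All 5 genes of leukocytes at large were lower after 4 d, and 1, Cd52, after 10 d, when their summed level was 0.59 times the control. After 6 d 3 of the 5 were lower, and after 50 d all 5, with a median of -1.18. Of the 9 class II genes 3 were lower after 50 d, with a median of -0.64. Cd52, a surface glycoprotein of lymphocytes and myeloid cells, stood at 5.79 in the control, 3.59 after 4 d and 4.79 after 10 d. Ptprc, which encodes CD45, was at 1.09, -0.50 and 1.13, and was the only gene of the 5 that was not below the control after 10 d. The summed level of these 5 was between 0.26 and 0.89 times the control over the 7 times. No marker of either list was below background on all arrays, and the part of these cells in the class II levels was not tested.

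Dendritic and Langerhans cell genes did not move as one. Of 14 such genes 13 were tested at 4 d, with a median of -0.54. Among them 4 were lower, against 6.5% of all genes, and 1 was higher, against 5.9%. The higher gene, Xcr1, was well above background on 1 array only. Itgax, which encodes CD11c, stood at 0.91 in the control, -1.02 at 4 d and 0.27 at 10 d, with its highest, second highest and lowest array as in the class II chains. Cd207, the langerin of Langerhans cells, went the other way, at -4.50 in the control and -2.77 at 1 d. It was dimmest at 10 d, at -5.71, and was not well above background on 1 array. Ccr7, a homing receptor of dendritic cells and T cells, was at -0.93 in the control and 2.00 at 12 h.

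The likeness of profiles was described by Pearson's r over the 8 arrays, which share 1 slide, and across 3279 genes that were well above background on all arrays and had an SD of at least 0.5. Among the genes outside the set most like the mean of H2-Aa, H2-Ab1, H2-Eb1 and Cd74 were Tmem106a, at 0.99, Pilra, Cybb, Slamf9 and Pld4, at 0.97, and Sh2d1b1 and A530064D06Rik, at 0.96. Cybb, a subunit of the phagocyte oxidase, was at 1.35 in the control and -0.29 at 4 d. Within the set H2-DMa had an r of 0.96 and H2-DMb1 one of 0.94, and H2-Oa and H2-Ob had 0.13 and 0.25. The mean profile of the macrophage list had an r of 0.92 with the same 4 genes, or 0.71 without the control and 10 d arrays. Among other lists, the processing list had 0.91, the promoter pathway 0.85, costimulation and general leukocytes 0.83, class I 0.82, fibroblasts 0.76, interferon gamma inducible genes 0.73 and dendritic cells 0.50. Without those 2 arrays the processing list had 0.66, the promoter pathway 0.71, costimulation 0.51, general leukocytes 0.62 and class I 0.64. Fibroblasts then had 0.0053, interferon gamma inducible genes 0.68 and dendritic cells 0.25. Keratinocyte genes ran opposite, at -0.78, or -0.59 without those 2 arrays. Of these 8 of 8 were at least 2-fold higher at 12 h, 1 d and 2 d, against 3.86%, 2.76% and 2.62% of all genes. At 10 d 5 were lower, against 2.13%, and 1 was higher, against 3.99%. The B cell list had 0.076, or 0.38 without those 2 arrays. The most like Ciita were Ccr1l1, at 0.98, and A530010L16Rik, Tlr2, Lilrb4 and Cmah, at 0.95.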

How the data were processed

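Per the file headers, the deposited values are spot intensity from Agilent Feature Extraction 10.5.1.1, background-subtracted and detrended, and dim spots carry surrogate values. The headers record no scaling of one array to another and place probes on mm9. No annotation of mm9 was used, so exons and UTRs are not given.

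Control spots and outlier spots were left out, replicate spots were averaged, and 55668 probes for 34790 gene names remained. Levels are log2 processed signals after subtraction of the 75th percentile of all kept spots on that array, and a gene with several probes was read from the one brightest on average. Steps ran in Python 3.11.15 with pandas 2.3.3, and calls were tested on simulated data. With 1 array per group there is no test and no p-value, and the number of arrays limits the precision.

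The members and the 15 gene lists were chosen with earlier results of these data known. Named genes were all 9 members, other class II genes, from each list some of the 4 members of widest range, and the genes most alike in profile. Which of those 4 were described was decided after their values were seen. Of the list genes, 2 were not matched to a probe. Other settings tried were quantile normalization, a median taken over the detected probes as the centre, normexp with an offset of 50 (limma 3.58.1, R 4.3.3), a stricter and no background filter, the mean over probes, the 50 d array or the median of all arrays as the reference, and limits of 1.5-fold and 3-fold. A gene that the rule on similar profiles selects, and the sequence of a probe, are not reported here.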

Additional observations from a re-analysis of the deposited data

How the results depend on the processing

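No paired analysis was possible because each group has 1 sample. The counts and medians of class II genes stayed within 1.5 times, or 0.18 on the log2 scale, of the values above unless named here. With the 50 d array as the reference, genes at least 2-fold lower numbered 0 after 12 h, 1 d, 2 d and 6 d and 1 after 4 d, 1 was higher after 10 d, and the medians were -0.036 after 12 h, -0.47 after 1 d, -0.32 after 2 d, -0.61 after 4 d, -0.21 after 6 d and 0.43 after 10 d. With the median of the 8 arrays as the reference, 0 were lower at any time, 1 was higher after 10 d, and the medians were 0.16 after 12 h, -0.29 after 1 d, -0.21 after 2 d, -0.47 after 4 d, 0.032 after 6 d, 0.57 after 10 d and 0.11 after 50 d, where H2-Aa, H2-DMa and H2-DMb1 turned to 0.091, 0.35 and 0.11. The control was the highest array for 6 genes. With 1 array per group, a control array that stood high by itself and lower levels after plucking cannot be told apart. At a 1.5-fold limit 6 genes were lower after 12 h, 7 after 2 d, 8 after 6 d, 2 after 10 d and 6 after 50 d, 4 were higher after 6 d against 4 d and 3 lower after 50 d against 10 d. At a 3-fold limit 1 was lower after 12 h, 1 d and 2 d, 3 after 4 d and 0 after 6 d and 50 d, 1 was higher after 10 d against 4 d, and 0 differed after 6 d against 4 d or 50 d against 10 d. With normexp 1 was lower after 6 d and 0 after 50 d against 10 d, and of all genes called after 50 d 49.3% were higher against 38.0%. With centring on probes above background 1 was lower at 50 d and 4 were higher at 10 d against 4 d. With quantile normalization the median of 50 d against 10 d was -0.62. The causes of the last 3 sets of changes were not tested. Of 63 differences of single genes from the control, 13 moved by more than 0.18 with normexp, 12 of them in H2-Oa and H2-Ob, the dimmest probes, 1 with quantile normalization and 1, H2-Ob at 12 h, with the mean over probes. The difference of H2-Ob at 10 d was near 0, below it as reported and above it with normexp and with the mean over probes. Of 210 counts of list genes, 20 changed by over 1.5 times with normexp and at most 9 under another scaling, probe or filter setting.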

Other observations

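Genes of costimulation, the second signal that antigen-presenting cells give to T cells, were read beside the class II genes. Of 9 listed genes, Tnfsf4 was not well above background on any array. Of the 8 genes tested, 2 were at least 2-fold lower after 12 h, 3 after 1 d and 3 after 2 d. After 4 d 2 were lower, after 6 d 1 and after 50 d 2. None was lower after 10 d, and none was higher at any time. Of all tested genes 3.33% were lower after 12 h, 3.14% after 1 d and 3.52% after 2 d. The share was 6.5% after 4 d, 2.1% after 6 d, 2.13% after 10 d and 4.4% after 50 d. The count after 6 d is a single gene. Between 2.62% and 5.9% of all genes were higher over the 7 times. Cd86, a ligand of CD28, stood at 1.83 in the control, 0.72 after 12 h, 0.33 after 1 d, 0.07 after 2 d, 0.05 after 4 d, 0.69 after 6 d, 1.25 after 10 d and -0.02 after 50 d. It thus lay as low after 50 d as after 2 d and 4 d, whereas H2-Ab1 after 50 d lay above its levels from 12 h to 4 d. Cd83, a marker of mature dendritic cells, was at 2.31 in the control, 0.66 after 4 d, 2.60 after 10 d and 2.33 after 50 d, and like Ciita it was highest after 10 d. Cd40, the receptor for T cell help, was at 0.07 in the control, 0.16 after 12 h, -1.14 after 1 d and 0.08 after 10 d.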
